A study of Mus musculus with 7 samples.

Results

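Polycomb proteins keep developmental genes silent through a pair of enzyme complexes. Polycomb repressive complex 2 (PRC2) methylates lysine 27 of histone H3, with EZH1 or EZH2 as the enzyme and EED and SUZ12 as obligate partners. Polycomb repressive complex 1 (PRC1) places ubiquitin on histone H2A through the RING protein RNF2 and a partner such as BMI1, and in its canonical form a chromobox protein such as CBX7 can bind the PRC2 mark. In blood, BMI1 is known for the maintenance of stem cells, and CBX7 has been linked to stem cell self-renewal. The 9 genes described here are the chromobox genes Cbx7, Cbx2 and Cbx8, the PRC1 core genes Bmi1 and Rnf2, and the PRC2 genes Ezh1, Ezh2, Eed and Suz12. They were found by symbol, through the gene identifier, among 55855 identifiers of the table, and 9 of 9 were present. All 9 passed the filter on low values, a mean of at least 1 FPKM (fragments per kilobase of gene, scaled to the counted reads of the library), which 13948 genes passed. The set was selected on knowledge of the FPKM differences between the Fth1-deleted and control libraries. Its rule names symbols and sets no threshold, and those differences are given as a description.

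RNA was from hematopoietic stem cells (HSCs) of mouse bone marrow, and 7 libraries of polyA RNA were sequenced. The 3 control libraries carry the genotype Fth1fl/fl, in which the gene of ferritin heavy chain, the iron-storing subunit of ferritin, is floxed; the series' design text calls their mice wild type. The 4 libraries called Fth1-deleted here carry the deletion of Fth1 on both alleles, made conditionally in the hematopoietic system. All mice were aged 2 months, and neither the Cre line, the sort markers nor the sex is given in the labels, nor is it said that each library came from its own mouse. Spread between libraries may therefore be technical.

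Counted reads were 12058392 to 15453168 per library. Fth1 itself was at 552, 659 and 638 FPKM in control libraries 1, 2 and 3 and at 202, 333, 358 and 114 FPKM in Fth1-deleted libraries 1, 2, 3 and 4, lower in each deleted library but not absent. All 8 stem cell markers of a fixed list (among them Kit, Mecom, Procr and Hlf) had reads in every library, and of 5 T cell markers Cd3e and Cd5 were at 0 in all 7. The summed level of the stem cell markers was 834 to 1368 FPKM in control and 551 to 742 FPKM in Fth1-deleted libraries. Control 2 stood apart on the first principal component, at -101 where the others lay between -15.1 and 39.4. Reads of ribosomal RNA, with mitochondrial ribosomal RNA included, took 0.266% to 1.09% of counted reads in control and 1.44% to 1.57% in Fth1-deleted libraries. The groups did not overlap in this measure either.

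The stretches of promoter below are shown because Cbx7 and Ezh1 were both lower in each Fth1-deleted library and Ezh2 was not. They are from RefSeq on GRCm38.p6, run 5′ to 3′ on the gene's strand, and span bases -150 to -31 counted from the RefSeq start site. The RefSeq starts of Cbx7 and Ezh2 lie inside the longer gene spans of GENCODE M21 given with their values, so these stretches are upstream of the RefSeq start but not of the whole GENCODE gene. Part of the Cbx7 stretch is an exon of a retained-intron transcript there. The last is the match of an E2F-type motif at the start of Ezh2. Capitals mark motif matches, which are described after the sequences.
Cbx7, chr15:79932677-79932796, minus strand: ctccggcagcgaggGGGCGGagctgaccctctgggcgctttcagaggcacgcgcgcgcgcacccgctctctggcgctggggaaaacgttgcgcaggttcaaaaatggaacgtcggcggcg
Ezh1, chr11:101226494-101226613, minus strand: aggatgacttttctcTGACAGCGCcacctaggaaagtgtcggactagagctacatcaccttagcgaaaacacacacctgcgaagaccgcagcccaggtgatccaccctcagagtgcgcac
Ezh2, chr6:47595061-47595180, minus strand: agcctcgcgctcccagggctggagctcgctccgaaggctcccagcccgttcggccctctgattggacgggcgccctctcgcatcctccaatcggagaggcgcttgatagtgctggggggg
Ezh2 start site, chr6:47595012-47595035, minus strand: ttgctgcgTTTGGCGCtcggtccg

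The promoter table holds 8 of the 9 genes, and Cbx2 is not among them. In windows of 300 bases around the start site, 5 motifs were searched on both strands. The E2F-type motif TTTNNCGC was in the windows of Ezh2 (bases 4 to 11 after the start) and Suz12 (-219 to -212), and in 5.17% of 32851 promoters. The GC box GGGCGG was in 5 members, among them Cbx7 (-136 to -131), and in 35.7% of all promoters. TGACNNNGC, the core of the element bound by NRF2 and BACH1, was in Ezh1 (-135 to -127), Ezh2 (-177 to -169) and Bmi1 (-211 to -203), and in 12.4% of all promoters. The E-box CACGTG was in Bmi1 (-215 to -210, where it overlaps the former motif) and Cbx8 (-98 to -93), and in 7.15% of all. The ETS motif CCGGAAGT was in no member and in 3.89% of all. The windows were rich in CpG, with 33 CpG in Cbx7, 41 in Suz12 and 17 in Eed, the lowest, against a median of 7 over all promoters. A match is a string of letters and not a measured binding site.

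Among the chromobox genes, Cbx7 RNA was lower in all 4 Fth1-deleted libraries than in all 3 control libraries, with a mean 2.54-fold lower. Cbx7 (ENSMUSG00000053411, chromosome 15, 79915807 to 79971119, minus strand) encodes a chromobox protein that binds methylated lysine 27 of histone H3. It was at 51.9, 103 and 56.8 FPKM in control libraries 1, 2 and 3, and at 25.4, 39.6, 33.4 and 12.5 FPKM in Fth1-deleted libraries 1 to 4. Control 2 was the highest and Fth1-deleted 4 the lowest, and between the nearest libraries of the groups, control 1 and Fth1-deleted 2, the gap was 51.9 to 39.6 FPKM. The means were 70.5 ± 28.1 (SD, n = 3) and 27.7 ± 11.7 FPKM (SD, n = 4), and the log2 difference on the log2(FPKM + 1) scale was -1.36 (SE 0.39). Without control 2 it was -1.06, and without Fth1-deleted 4 it was -1.03. These values rest on 317 to 2658 reads per library. In bulk RNA, fewer cells with Cbx7 and less Cbx7 RNA per cell cannot be told apart.

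**Figure D1:**
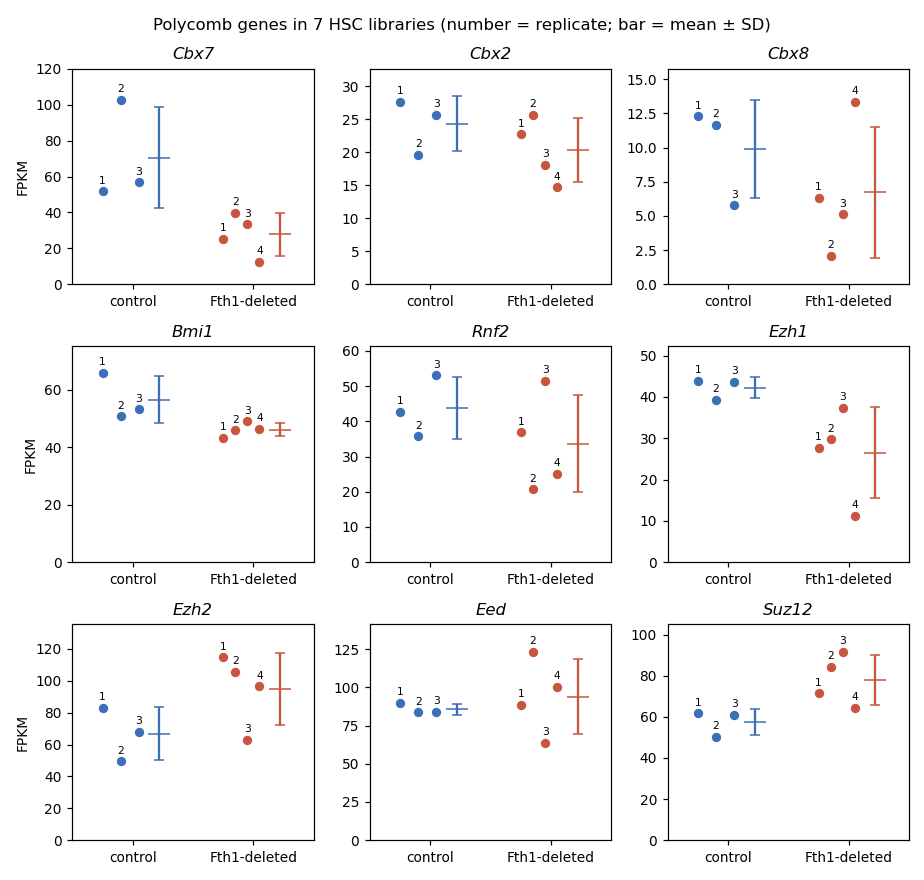
FPKM (vertical axes, from 0) of the 9 Polycomb genes in 3 control and 4 Fth1-deleted HSC libraries; each point is a library with its replicate number, and the bars are mean ± SD. The groups do not overlap for Cbx7, Bmi1 and Ezh1, which are lower in Fth1-deleted libraries, or for Suz12, which is higher there.

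Cbx2 and Cbx8 are neighbours on chromosome 11 and differed less between the groups than among the libraries. Cbx2 (ENSMUSG00000025577, 119022962 to 119031270, plus strand), whose protein is known to compact chromatin, was at 27.6, 19.6 and 25.7 FPKM in control, against 22.7, 25.6, 18.1 and 14.7 FPKM in the Fth1-deleted group. The ranges overlap over most of their length, and the log2 difference was -0.26 (SE 0.32). It was -0.13 without Fth1-deleted 4, -0.17 without control 1 and -0.40 without control 2. Cbx8 (ENSMUSG00000025578, 119036305 to 119040969, minus strand), a further chromobox subunit of PRC1, was the least abundant of the 9, at 12.3, 11.7 and 5.79 FPKM in control, against 6.34, 2.07, 5.11 and 13.4 FPKM in the Fth1-deleted group. Its lowest value rests on 46 reads and its highest on 323 reads. The library with the lowest Cbx7 had the highest Cbx8. The log2 difference of Cbx8 was -0.65 (SE 0.58), and it ranged from -0.28 without Fth1-deleted 2 to -1.02 without Fth1-deleted 4.

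Of the PRC1 core genes, Bmi1 was slightly lower in Fth1-deleted libraries and Rnf2 overlapped between the groups. Bmi1 (ENSMUSG00000026739, chromosome 2, 18677018 to 18686629, plus strand), the Polycomb partner of the RING enzyme, was at 65.8, 50.7 and 53.1 FPKM in control, against 43.3, 45.8, 48.9 and 46.3 FPKM in the Fth1-deleted group. The groups do not overlap, but control 2 at 50.7 FPKM and Fth1-deleted 3 at 48.9 FPKM are close, and the log2 difference was -0.28 (SE 0.22), or -0.17 without control 1. The Fth1-deleted libraries were close to each other, with a coefficient of variation of 4.98%, the smallest of the 9 genes in that group. The pseudogene Gm5946 on chromosome X is 97.0% identical to Bmi1 over 2658 bases, and it was listed at 0 to 0.127 FPKM. Rnf2 (ENSMUSG00000026484, chromosome 1, 151458004 to 151500955, minus strand), the RING enzyme of PRC1, was at 42.7, 35.7 and 53.0 FPKM in control, against 36.9, 20.7, 51.5 and 25.2 FPKM in the Fth1-deleted group. Fth1-deleted 2 and 4 were below all control libraries and Fth1-deleted 1 and 3 were within their range. The log2 difference was -0.44 (SE 0.33), and its size ranged from -0.25 without Fth1-deleted 2 to -0.67 without Fth1-deleted 3.

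Each of these genes has a paralog that can take its place in the complex. Rnf2 made up 64.1%, 43.0% and 75.2% of the summed FPKM of Rnf2 and Ring1 in control, against 52.2%, 43.7%, 71.1% and 41.8% in the Fth1-deleted group. Bmi1 was the larger part of Bmi1 plus Pcgf2 in every library, at 76.9% to 86.2% in control and 69.8% to 85.5% in Fth1-deleted libraries. Both shares overlapped between the groups.

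The enzymes of PRC2 lay on opposite sides of 0, with Ezh1 lower in every Fth1-deleted library and Ezh2 higher in 3 of 4. Ezh1 (ENSMUSG00000006920, chromosome 11, 101191115 to 101226463, minus strand), the form known from cells that do not divide, was at 44.0, 39.2 and 43.7 FPKM in control, against 27.7, 29.8, 37.4 and 11.2 FPKM in the Fth1-deleted group. The control libraries were close to each other, with a coefficient of variation of 6.26%, and the Fth1-deleted libraries were spread over a wider range, at 41.5%. The log2 difference was -0.77 (SE 0.37), and -0.42 without Fth1-deleted 4. Ezh2 (ENSMUSG00000029687, chromosome 6, 47530139 to 47595341, minus strand), the form known from dividing cells, was at 83.0, 49.5 and 68.0 FPKM in control, against 115, 106, 63.2 and 96.5 FPKM in the Fth1-deleted group. Fth1-deleted 3 was within the control range and the other 3 were above it. The log2 difference was 0.50 (SE 0.26), and 0.30 without control 2.

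The ratio of Ezh2 to Ezh1 was 1.89, 1.26 and 1.56 in control, against 4.14, 3.54, 1.69 and 8.58 in the Fth1-deleted group. Fth1-deleted 3 again lay within the control range. Ezh1 and Ezh2 summed to 88.7 to 127 FPKM in control and to 101 to 142 FPKM in Fth1-deleted libraries, so the groups overlapped in the sum. The mean log2(FPKM + 1) of 15 genes of cell division was 5.83, 4.82 and 5.09 in control, against 5.93, 5.87, 5.76 and 6.06 in the Fth1-deleted group. By limma 0 of the 15 passed the threshold, against 0.0574% of all tested genes, and limma-voom called 0. An unadjusted p under 0.05 was seen for 5, against 9.83% of all tested genes. The log2 difference was positive for 15 of 15, with a median of 0.62, against 48.7% positive over all tested genes. Hmmr, a spindle gene, was at 13.5 ± 1.79 FPKM (SD, n = 3) in control and 31.3 ± 4.39 FPKM (SD, n = 4) after deletion (limma adjusted p = 0.234), and Cdca3 at 38.0 ± 8.18 and 69.6 ± 5.31 FPKM (limma adjusted p = 0.239). Fth1-deleted 3, with Ezh2 below control 1 and 3, had a mean of the division genes below that of control 1 and above that of control 3. The part of these genes in the Ezh2 values was not tested. Set against Mki67, a marker of dividing cells, Ezh2 was at 0.690, 0.957 and 1.09 FPKM per FPKM of Mki67 in control, against 0.896, 0.846, 0.515 and 0.911 in the Fth1-deleted group, and the groups overlapped.

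**Figure D2:**
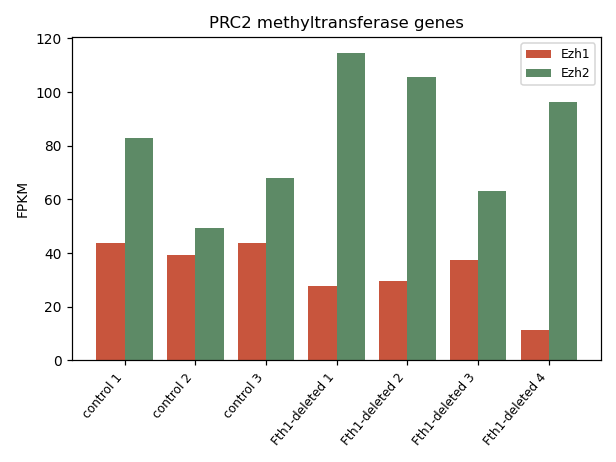
FPKM of Ezh1 and Ezh2 (vertical axis, from 0) side by side for each of the 3 control and 4 Fth1-deleted libraries; each bar is 1 library. Ezh1 is lower than Ezh2 in all 7 libraries, and the ratio of Ezh2 to Ezh1 is largest in Fth1-deleted 4, at 8.58.

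The scaffold genes of PRC2 were abundant in both groups. Eed (ENSMUSG00000030619, chromosome 7, 89954654 to 89980983, minus strand), which reads the methyl mark and stimulates the enzyme, was at 89.8, 83.6 and 83.8 FPKM in control, against 88.6, 123, 63.9 and 101 FPKM in the Fth1-deleted group. Fth1-deleted 1 lay within the narrow control range, Fth1-deleted 2 and 4 above it and Fth1-deleted 3 below it. The log2 difference was 0.09 (SE 0.23), or -0.05 without Fth1-deleted 2, 0.05 without Fth1-deleted 4 and 0.26 without Fth1-deleted 3. Suz12 (ENSMUSG00000017548, chromosome 11, 79993106 to 80034123, plus strand), which holds the complex together, was at 61.7, 50.3 and 61.0 FPKM in control, against 71.4, 84.5, 91.7 and 64.4 FPKM in the Fth1-deleted group. It was the only one of the 9 that was higher in every Fth1-deleted library, with Fth1-deleted 4 at 64.4 FPKM just above control 1 at 61.7 FPKM, and its log2 difference was 0.42 (SE 0.21).

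Exons of Cbx7, Rnf2, Ezh2, Eed and Suz12 share 100, 158, 174, 261 and 178 bases with genes on the opposite strand. How the counting treated strand is not given in the sources used here, so reads in these bases cannot be assigned to a strand. Eed has the largest such part, 261 of 3828 exonic bases.

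In the order of mean FPKM, control libraries had Eed first at 85.8 ± 3.52 (SD, n = 3), then Cbx7, Ezh2, Suz12, Bmi1, Rnf2, Ezh1 and Cbx2, with Cbx8 last at 9.92 ± 3.59. The ranges of neighbours overlapped down to Ezh1, whereas Ezh1 and Cbx2, and Cbx2 and Cbx8, were apart. In Fth1-deleted libraries Ezh2 and Eed came first, with Eed at 94.0 ± 24.7 (SD, n = 4), followed by Suz12, Bmi1, Rnf2, Cbx7, Ezh1, Cbx2 and Cbx8. There the ranges of Suz12 and Bmi1 were apart, and so were those of Cbx2 and Cbx8. Cbx7 was in place 2 of 9 by the control mean and in place 6 by the mean of the Fth1-deleted libraries. Place 2 rests on control 2, since in control 1 and 3 Cbx7 lay below Eed, Ezh2 and Suz12. By mean over all 7 libraries, the 9 genes stood between the 33.6th percentile (Cbx8) and the 88.7th (Eed) of the tested genes.

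The libraries did not move all 9 genes together. Fth1-deleted 4 had the lowest value of Cbx7, Cbx2 and Ezh1 and the highest of Cbx8. Control 2 had the highest Cbx7 and the lowest Ezh2 and Suz12. Counted over the 9 genes, the groups did not overlap for 4, with 3 lower and 1 higher in Fth1-deleted libraries. Over all tested genes 9.65% did not overlap, 5.55% lower and 4.1% higher. None of the 9 passed the threshold of limma (adjusted p under 0.05 by Benjamini-Hochberg over 13948 genes). It was passed by 0.0574% of all genes, 0.0287% higher and 0.0287% lower. Fth1, the deleted gene, did not pass the threshold either (log2 difference -1.42, SE 0.33, limma adjusted p = 0.193). Missing the threshold therefore does not show that a gene was unchanged. At an unadjusted p under 0.05 there was 1 of the 9, against 9.83% of all tested genes, and limma-voom on the recovered reads called 0 of them. The 9 genes were listed with results of this comparison known, so these counts describe them and test nothing. The median log2 difference of the 9 was -0.28, and that of all tested genes was -0.02. With the share of ribosomal RNA as a covariate, a fit chosen after seeing the data, the median of the 9 turned to 0.12. In that fit Cbx2 was at 0.32 (SE 0.65), Rnf2 at 0.14 (SE 0.69) and Eed at 0.12 (SE 0.51). Cbx7 was at -2.16 (SE 0.81), Cbx8 at -1.53 (SE 1.23), Ezh1 at -0.36 (SE 0.80) and Bmi1 at -0.09 (SE 0.45). Ezh2 was at 1.15 (SE 0.52) and Suz12 at 0.78 (SE 0.44). The share of ribosomal RNA does not overlap between the groups, so this fit separates it poorly from the deletion.

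Marker lists of other cells are given here as summed FPKM. Of the 31 genes tested, limma and limma-voom each called 0, where limma called 0.0574% of all tested genes. An unadjusted p under 0.05 was seen for 11, against 9.83% of all tested genes. The part of these marker genes in the values above was not tested. The groups did not overlap in the sums of macrophage markers and of mast cell and basophil markers, and overlapped in those of B cell, granulocyte and monocyte, and erythroid markers. The 6 macrophage markers summed to 19.0 to 35.3 FPKM in control and to 43.5 to 135 FPKM in Fth1-deleted libraries. The 6 mast cell and basophil markers summed to 0 to 12.9 and 16.0 to 44.4 FPKM, with Mcpt8 and Prss34 at 0 in all 7 libraries. Cpa3 made up most of that sum in each Fth1-deleted library. It was at 6.55, 0 and 0 FPKM in control, against 16.0, 33.9, 35.7 and 21.8 FPKM in the Fth1-deleted group. Hdc and Ms4a2 overlapped between the groups, and Fcer1a had reads in Fth1-deleted 2 only. The 8 B cell markers summed to 12.1 to 26.2 and 24.2 to 87.8 FPKM, the 8 granulocyte and monocyte markers to 283 to 562 and 275 to 697 FPKM, and the 7 erythroid markers to 229 to 731 and 183 to 636 FPKM. Prtn3 and Lyz2 made up most of the granulocyte and monocyte sum, with log2 differences of -0.06 and -0.39. Over the 8 genes of that list the log2 difference was positive for 6, with a median of 2.33, and 3 had an unadjusted p under 0.05. Mpo, the myeloperoxidase gene, was at 2.33, 3.63 and 0.255 FPKM in control, against 23.4, 15.4, 84.2 and 135 FPKM in the Fth1-deleted group, without overlap (limma adjusted p = 0.0803); it was named after its values were seen. Of the 8 B cell markers 7 were tested. Their log2 difference was positive for 7 of 7, with a median of 1.41, and 2 had an unadjusted p under 0.05. In control 2 the B cell sum was Cd79b alone, at 26.2 FPKM. Vpreb1 was at 0 in control, against 4.06, 9.71, 29.5 and 31.8 FPKM in the Fth1-deleted group (limma adjusted p = 0.0918). This gene, too, was named after its values were seen. The 5 T cell markers were at 0 in 6 libraries and at 5.42 FPKM in Fth1-deleted 4.

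The other genes of the pathway did not pass the test. Of 61 genes in 6 lists of Polycomb partners, opponents and heterochromatin chromobox genes, 60 were found and 58 were tested. By limma 0 rose and 0 fell after adjustment over all genes, 8 had an unadjusted p under 0.05, and limma-voom called 0. Over all tested genes 0.0574% passed the limma threshold and 9.83% had an unadjusted p under 0.05. With so small a share passing, a count of 0 says little about these 58 genes or about any list below. Of the 58, 28 had a positive and 30 a negative log2 difference, with a median of -0.04, close to the -0.02 of all tested genes. The groups did not overlap for 4 of the 58 that were higher and 2 that were lower in Fth1-deleted libraries. Over all tested genes these shares were 4.1% and 5.55%.

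None of the 10 other canonical PRC1 subunits passed the threshold (limma, 0 called, 1 at an unadjusted p under 0.05), and their median was -0.16. Cbx6, of the same chromobox family, was at 110, 191 and 149 FPKM in control, against 83.8, 117, 120 and 82.1 FPKM in the Fth1-deleted group (log2 difference -0.55, SE 0.24, limma adjusted p = 0.480). Scml4, a Scm-type gene, was at 9.44, 20.3 and 9.70 FPKM in control, against 1.99, 4.89, 8.74 and 7.53 FPKM in the Fth1-deleted group (limma adjusted p = 0.540). Its groups did not overlap.

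Of the variant PRC1 subunits 12 of 13 were tested, with 0 past the threshold and a median of -0.01. L3mbtl2, an MBT-domain protein of the complex built on PCGF6, had the smallest unadjusted p of its list. It was at 4.78, 12.2 and 13.7 FPKM in control, against 29.9, 29.2, 34.2 and 17.8 FPKM in the Fth1-deleted group, without overlap (log2 difference 1.43, SE 0.41, limma adjusted p = 0.297). Mga, a DNA-binding scaffold of the same complex, had a log2 difference of -0.59 (SE 0.32, limma adjusted p = 0.584). L3mbtl2 and Mga thus lay on opposite sides of 0, and neither passed.

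Of the PRC2 partner subunits 10 of 11 were tested, with 0 past the threshold and a median of -0.06. Epop, which is known to limit the interaction of PRC2 with its partners, was at 10.1, 7.70 and 0 FPKM in control, against 22.1, 11.4, 17.5 and 19.2 FPKM in the Fth1-deleted group, without overlap (log2 difference 1.98, SE 0.73, limma adjusted p = 0.426). Phf1, a Polycomb-like protein that helps to recruit PRC2, was at 19.7, 28.6 and 16.5 FPKM in control, against 11.6, 9.41, 18.4 and 3.92 FPKM in the Fth1-deleted group (limma adjusted p = 0.501). Its lowest value was in Fth1-deleted 4, as for Cbx7 and Ezh1.

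Among the genes that act against Polycomb, 0 of 14 H3K27 demethylase and Trithorax-type genes passed (median -0.05) and 0 of 9 tested genes of the H2A deubiquitinase list passed (median 0.11). Kdm6a, an X-linked H3K27 demethylase, was at 46.3, 18.8 and 33.4 FPKM in control, against 12.4, 21.2, 12.2 and 22.8 FPKM in the Fth1-deleted group (limma adjusted p = 0.493). Dpy30, a subunit shared by the H3K4 methyltransferases, had a log2 difference of 0.67 (SE 0.26, limma adjusted p = 0.440). Foxk2, a partner of the deubiquitinase BAP1, had 0.49 (SE 0.21, limma adjusted p = 0.483), without overlap between the groups. Mbd5, of the same list, had -0.70 (SE 0.44, limma adjusted p = 0.640).

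The heterochromatin chromobox genes, relatives of Cbx7 that bind lysine 9 of histone H3, had a median of 0.30 over 3 genes, and 0 passed. Cbx3 was at 171, 112 and 162 FPKM in control, against 193, 223, 226 and 207 FPKM in the Fth1-deleted group, without overlap (limma adjusted p = 0.410). Its level is uncertain, since its pseudogenes Cbx3-ps6 and Cbx3-ps7 are 99.8% and 99.6% identical to it over 552 bases. Cbx3-ps6 was listed at 0 to 0.141 FPKM and Cbx3-ps7 at 0.361 to 13.4 FPKM, highest in Fth1-deleted 3. Cbx1 had a log2 difference of 0.30 (SE 0.19, limma adjusted p = 0.640).

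**Figure D3:**
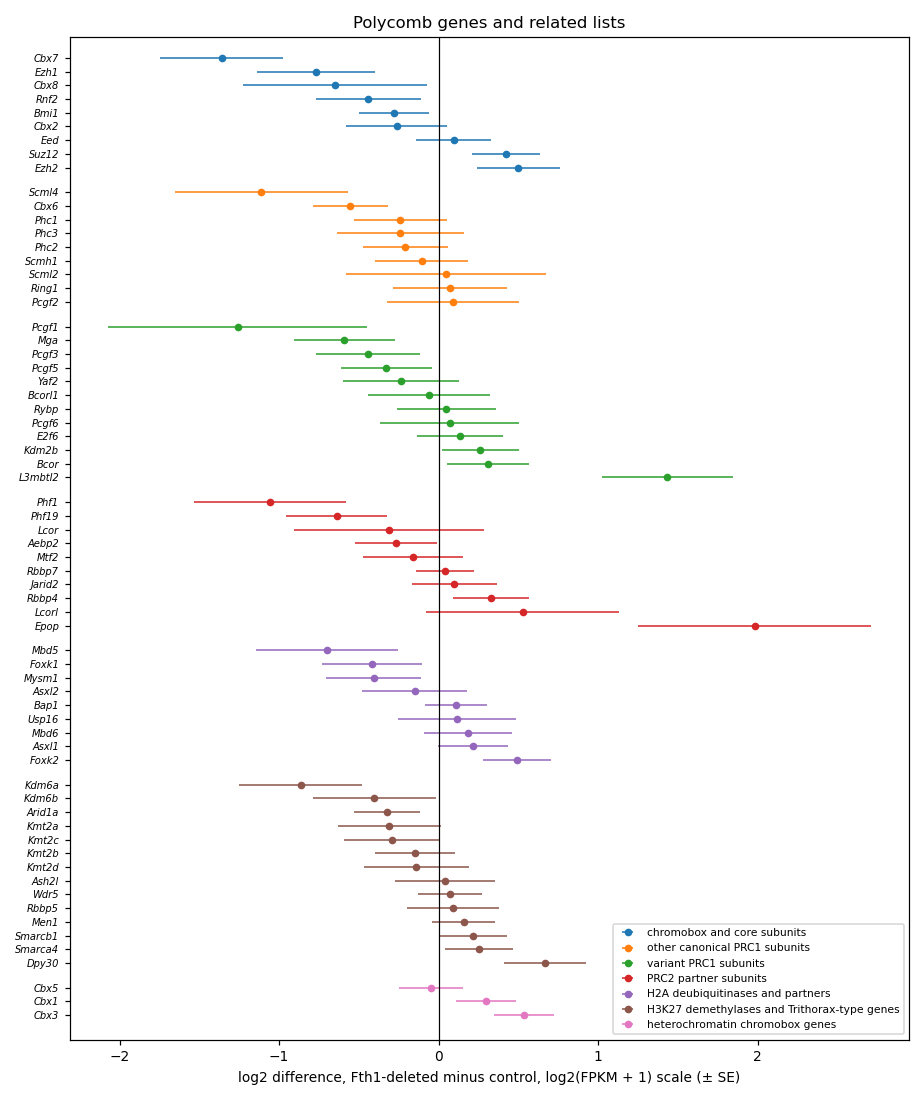
Log2 difference (Fth1-deleted minus control, log2(FPKM + 1) scale) with its SE for the 9 chromobox and core subunits and for tested genes of 6 related lists. Cbx7 has the most negative value of the 9 at -1.36, while Scml4, Phf1 and Pcgf1 of the other lists also lie below -1 and L3mbtl2 and Epop lie above 1.

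Genes that Polycomb is known to silence were mostly without reads in both groups. Of 23 developmental regulators, among them Pax6, Gata4, Nkx2-1, Olig2 and the Hoxd genes, 20 were at 0 in all 7 libraries, and none passed the filter on low values. The 3 with reads were Sox1 with 8 reads in Fth1-deleted 3, Hoxd9 with 41 reads in Fth1-deleted 4, and Tbx1 with 4.17 FPKM in control 2 and 1.37 FPKM in Fth1-deleted 1. Cdkn2a and Cdkn2b, cell-cycle inhibitor genes known as targets of BMI1 and CBX7, were at 0 in all 7 libraries. A count of 0 allows up to 3 reads, which for Cdkn2a is 0.222 to 0.285 FPKM, and this covers counting error only.

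Of the 7 targets described in blood cells, 3 were tested and 0 passed. Hmga2, a chromatin gene of fetal stem cells, was at 2.67, 7.81 and 5.86 FPKM in control, against 4.09, 5.63, 4.12 and 3.90 FPKM in the Fth1-deleted group (limma adjusted p = 0.937). Ebf1, a B cell factor known to be repressed by BMI1 in stem cells, was at 0 in control, against 5.72, 0, 2.58 and 1.05 FPKM in the Fth1-deleted group (limma adjusted p = 0.619). Pax5, of the same lineage, was at 8.77 FPKM in control 1, at 5.65 and 3.64 FPKM in Fth1-deleted 1 and 4, and at 0 in the others. Ebf1 and Pax5 also stand on the B cell marker list. Lin28b had 67 reads in control 1 and 0 in the other 6 libraries, so that a low gene could be at 0 in some libraries and at 67 reads in another of the same group.

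Gene profiles nearest to Cbx7 and Ezh2 were sought over the 7 libraries among 9483 named genes with a mean of at least 5 FPKM. Likeness was the root-mean-square difference of log2(FPKM + 1), each gene centred on its own mean. The 5 nearest to Cbx7 were Klk8 (0.18), Nwd1 (0.20), Trim47 (0.22), Carns1 (0.24) and Itsn1 (0.26), where the median over the genes compared was 0.94. The nearest, Klk8, was at 26.6, 60.8 and 30.8 FPKM in control, against 12.7, 18.4, 15.2 and 8.41 FPKM in the Fth1-deleted group, with control 2 highest and Fth1-deleted 4 lowest as for Cbx7. The 5 nearest to Ezh2 were Aaas (0.11), Nop10 (0.12), Nasp (0.12), Grn (0.14) and Eloc (0.14), against a median of 0.58. These lists were taken from the whole table by their likeness and carry no test. Within the 9, the nearest pair was Cbx2 and Bmi1 (0.26), and the farthest was Cbx7 and Ezh2 (1.18).

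**Figure D4:**
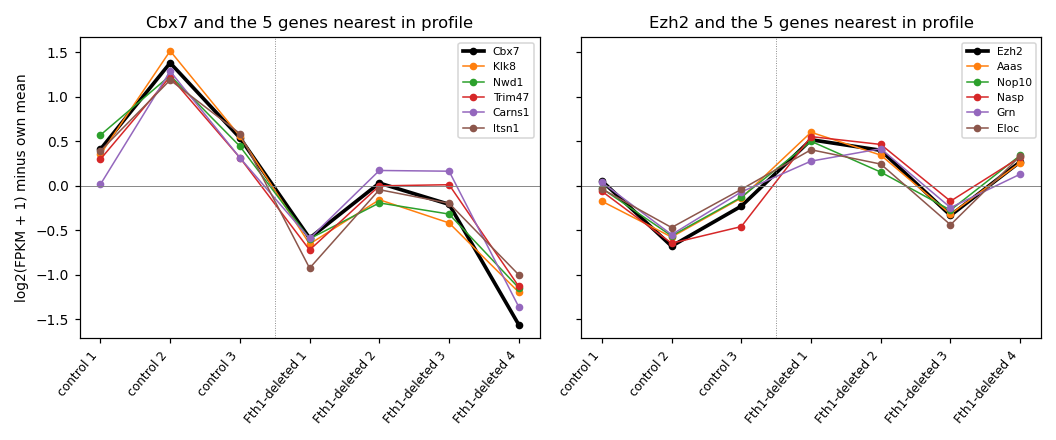
Log2(FPKM + 1) minus each gene's own mean (vertical axis) in the 7 libraries for Cbx7 (left, black) and Ezh2 (right, black) with the 5 genes nearest in profile; lines only join the values of a gene, and the dotted line parts control from Fth1-deleted libraries. Cbx7 and its neighbours peak in control 2 and are lowest in Fth1-deleted 4, while Ezh2 and its neighbours dip in control 2 and Fth1-deleted 3.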

How the data were processed

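PolyA RNA of 7 HSC libraries was measured. The deposited unit is FPKM; per the series' design text the authors derived it from gene length and reads counted with HTSeq 0.9.1 after HISAT2 2.0.4 alignment to GRCm38; the annotation release, strand setting and any filter are not given in the sources used here. Of 55855 identifiers 55480 matched GENCODE M21. Counted reads were recovered from FPKM and the rounded mean transcript length: of values under 50 reads, 98.9% to 99.4% were whole within 0.05 reads. Values were taken as log2(FPKM + 1), and 13948 genes with a mean of at least 1 FPKM were fitted with limma 3.58.1 in R 4.3.3 (trend, two-sided, no covariate, Benjamini-Hochberg, threshold 0.05), after the fit was tested on simulated data. A fold on this scale understates the change of low genes. Copies were sought with blastn at 95% identity over at least 100 bases. The members, gene lists and naming rule were chosen with earlier results of these data known; the rule names the 9 members, Fth1, Mki67, up to 3 genes past the threshold per list or else the 2 with the smallest p, and the 5 profiles nearest to Cbx7 and Ezh2. Genes outside it were named after their values were seen. Same-numbered libraries of the 2 groups were not paired by the labels. A listed gene is counted in its list but not reported here by name.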

Additional observations from a re-analysis of the deposited data

Results flagged for a closer look

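Among 38 quantities checked for a stray library within the 4 Fth1-deleted libraries, 2 were noted, where chance gives about 1 in 20. Ezh2 per Mki67 was 0.515 in Fth1-deleted 3, far below the 0.846 to 0.911 of the other 3. Hmga2 was 5.63 FPKM in Fth1-deleted 2, above the 3.90 to 4.12 FPKM of the other 3.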

How the results depend on the processing

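The log2 difference of Cbx7 ranged from -2.16 (SE 0.81) with a ribosomal RNA covariate, chosen after seeing the data, to -1.03 with the replicate block. The block gave the same value as leaving out Fth1-deleted 4, the only library with that number, so these are not separate alternatives. With 1 library left out the log2 difference of Cbx7 was -1.56 to -1.03. It was negative in 19 of 19 alternatives, which describes the same libraries and tests nothing. Cbx7 was lower in every Fth1-deleted library, so its sign could not turn when a library was left out. The median of the 9 genes was -0.40 to -0.17 with 1 library left out and turned to 0.12 with the ribosomal RNA covariate. Under that covariate Cbx2 (0.32, SE 0.65) and Rnf2 (0.14, SE 0.69) were positive. The share of ribosomal RNA does not overlap between the groups, and the cause of these shifts was not tested. The genes called over the whole table were 8 and became 0 without a filter, 17 without a trend, 0 with the replicate block, 5 with limma-voom, 2 with the ribosomal RNA covariate and 0 to 19 with 1 library left out (19 without control 1, 13 without control 2, 0 without control 3, 1 without Fth1-deleted 3). The partner genes called stayed at 0 in 19 of 19. The whole table had only 0 to 19 calls in these settings, so this count had little room to move and shows no stability. The block rests on 3 number pairs, whose deviations correlated at 0.009, 0.0609 and -0.037, so the numbers are not taken as pairs. The count of members without overlap was 4 to 5 with 1 library left out. It could not fall below 4, since groups that are apart stay apart when a library is dropped. Over all tested genes the shares without overlap rose to between 5.28% and 9.20% higher and between 6.90% and 11.8% lower.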
